A study of Mus musculus with 5 samples.

Results

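*Rtp1*, *Rtp2*, *Reep1*, *Kdm1a*, *Lbr*, *Cbx5*, *Ehmt1* and *Ehmt2* were followed in olfactory sensory neurons (OSNs) after exposure of mice to an odorant. The first 3 code for proteins of receptor transport and the other 5 for nuclear factors of receptor choice. These 8 genes were chosen by name from known roles, out of 55411 genes in the tables, and were found by gene identifier. Earlier results of these data were known when the choice was made. Homozygous *Olfr151*tm26Mom male mice of 7 weeks were used, in which cells that transcribe *Olfr151* also carry the *IRES-tau-GFP* reporter. All mice of both groups had this allele. For 5 h, isolated mice were exposed either to 5% acetophenone, a ligand of the Olfr151 receptor, dissolved in DMSO (exposed group) or to DMSO alone (control group). GFP-positive cells were then sorted by flow cytometry from the main olfactory epithelium of 4 mice a pool, and their polyadenylated RNA was amplified and sequenced. A pool held 200 cells by its own label and by the study's methods, while the protocol text gives 400. Control pools 1, 2 and 3 (n = 3) and exposed pools 1 and 3 (n = 2) were available, while exposed pool 2 was not analysed here. The pools were prepared on 3 consecutive days, and the labels do not say which day each pool belongs to.

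An OSN transcribes a single allele of a single odorant receptor (OR) gene. Before a receptor is chosen, OR genes lie in heterochromatin marked by methylation of histone H3 on lysine 9 (H3K9). The methyltransferases Ehmt1 (GLP) and Ehmt2 (G9a) act as a heterodimer on H3K9, and Cbx5 (HP1 alpha) binds the methylated histone. Lbr, the lamin B receptor, tethers heterochromatin to the nuclear envelope, and its loss from maturing OSNs goes with the gathering of OR genes away from the envelope. Kdm1a (LSD1) is a histone demethylase needed for the first activation of an OR gene and is switched off once a functional receptor has been made. Rtp1 and Rtp2 are paralogous proteins that carry ORs out of the endoplasmic reticulum to the cell surface, and Reep1 is a protein of the endoplasmic reticulum that can raise OR surface levels in cultured cells. Rtp1 and Rtp2 also take part in the feedback that makes the choice of receptor stable.

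*Rtp1* (16:23429133-23433960, plus strand, GRCm38) and *Rtp2* (16:23925548-23932394, minus strand) lie on the same chromosome, and *Reep1* is at 6:71707561-71810710 on the plus strand. *Kdm1a* is at 4:136550540-136602723 on the minus strand, *Lbr* at 1:181815335-181843046 on the minus strand, *Cbx5* at 15:103191544-103239816 on the minus strand, *Ehmt1* at 2:24789928-24919614 on the minus strand and *Ehmt2* at 17:34898469-34914052 on the plus strand. Values are sums over all exons of a gene. The exons of *Lbr* share 440 bases, 9.24% of their length, with those of *Dnah14* on the opposite strand, and 69 bases with *Gm26004*. *Ehmt1* shares 21 exonic bases with *Gm37139*. *Dnah14* had at most 8 counts in a library and the other 2 had 0. The exons of the other 6 members overlap no annotated exon of another gene.

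Promoter windows of 250 bases before the RefSeq start site (GRCm38.p6) were found for 7 of the 8 members, not for *Rtp1*. They were searched on both strands for CCCNNGGG (the core bound by Olf/Ebf factors), TAATTA (homeodomain core), TGACGTCA (cAMP response element) and TGANTCA. The last is a looser form of the AP-1 element, which has C or G at the N. None of the 4 patterns contains another. CCCNNGGG was found in the windows of both transport genes that had one, 202 bases before the start of *Rtp2* and 65 bases before that of *Reep1*, and in none of the windows of the 5 nuclear factors. It occurs in 11.8% of the 32851 RefSeq windows of this length that were searched, a set that leaves out 1 chromosome, on which no member lies. TGANTCA, present in 6.75% of windows, was found for *Lbr* alone, 48 bases before its start. The match reads TGATTCA, with T at the N, and so is not the AP-1 element itself. TAATTA (4.84% of windows) and TGACGTCA (1.55%) were found for no member. A match is a description of the letters and no binding was measured. Windows of 2 members are shown, chosen after the values were seen: *Rtp2*, the paralog of the only member called, on the same chromosome, and *Kdm1a*, the member with the largest fitted difference. The *Rtp2* window is chr16:23930795-23931044 and the *Kdm1a* window chr4:136602724-136602973, both from the minus strand, 5′ to 3′, and capitals mark the CCCNNGGG match.
Rtp2: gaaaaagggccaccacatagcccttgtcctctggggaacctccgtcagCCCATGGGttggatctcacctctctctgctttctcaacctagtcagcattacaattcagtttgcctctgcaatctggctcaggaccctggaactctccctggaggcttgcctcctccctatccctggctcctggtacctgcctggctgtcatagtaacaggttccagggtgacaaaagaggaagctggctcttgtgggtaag
Kdm1a: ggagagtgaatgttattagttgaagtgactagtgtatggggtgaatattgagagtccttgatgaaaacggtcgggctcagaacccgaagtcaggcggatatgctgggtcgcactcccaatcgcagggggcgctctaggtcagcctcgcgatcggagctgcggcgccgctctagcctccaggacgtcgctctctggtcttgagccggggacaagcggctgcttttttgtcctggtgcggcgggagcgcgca
The *Rtp2* window had a GC content of 54.8% and 1 CpG, and lies in an intron of the longest annotated transcript. The *Kdm1a* window had 59.2% GC and 21 CpGs, against a median GC content of 52.4% over all windows searched.

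The libraries held between 42780403 and 49527380 counts. A gene was tested if all libraries of 1 condition or of both held 140 counts or more, which 10055 genes and all 8 members did, with member counts between 433 and 95248. Levels are given as CPM, counts scaled to a common library total and corrected for library composition by TMM. A gene was called when edgeR's quasi-likelihood test gave a Benjamini-Hochberg adjusted p under 0.1 over all tested genes and the log2 fold change, exposed minus control, was above 0.5 in size. Of the tested genes, 344 (3.42%) were called higher and 186 (1.85%) lower in exposed pools, 5.27% in all. These counts fell to 93 and 19 without exposed pool 1, to 109 and 78 without exposed pool 3 and to 160 and 64 without control pool 2, while without control pool 3 the number called lower was 429. The correlation of log2 CPM over tested genes was 0.870 to 0.920 between control pools, 0.925 between the exposed pools and 0.767 to 0.874 between conditions. The 8 markers of mature OSNs were all tested and summed to 56285 to 59991 CPM in control and 49085 to 49860 CPM in exposed pools, with *Cnga2* and *Cngb1*, the subunits of the olfactory cyclic nucleotide-gated channel, called lower. Both calls were lost without exposed pool 1 (adjusted p = 0.109 and 0.333) and without exposed pool 3 (adjusted p = 0.128 and 0.132), and that of *Cngb1* without control pool 2 (adjusted p = 0.150). Of the 9 markers of olfactory precursors none reached the count minimum, and their sum was at most 10.5 CPM.

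Of the 8 members, 1 was called lower, *Rtp1*, and none higher, beside 1.85% and 3.42% of all tested genes. Both exposed pools lay below all control pools for 4 members (*Rtp1*, *Rtp2*, *Kdm1a* and *Ehmt2*), which held for 19.6% of all tested genes, and above them for 2 (*Cbx5* and *Ehmt1*), which held for 20.3%. *Reep1* and *Lbr* overlapped between conditions. An unadjusted p under 0.05 was reached by 5 members and by 19.1% of all tested genes. The median log2 fold change was -0.29 over the members and -0.03 over all tested genes. DESeq2 on the same counts called 4 members, *Rtp1* and *Kdm1a* lower and *Cbx5* and *Ehmt1* higher, where it called 7.65% of all genes lower and 7.22% higher.

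**Figure D1:**
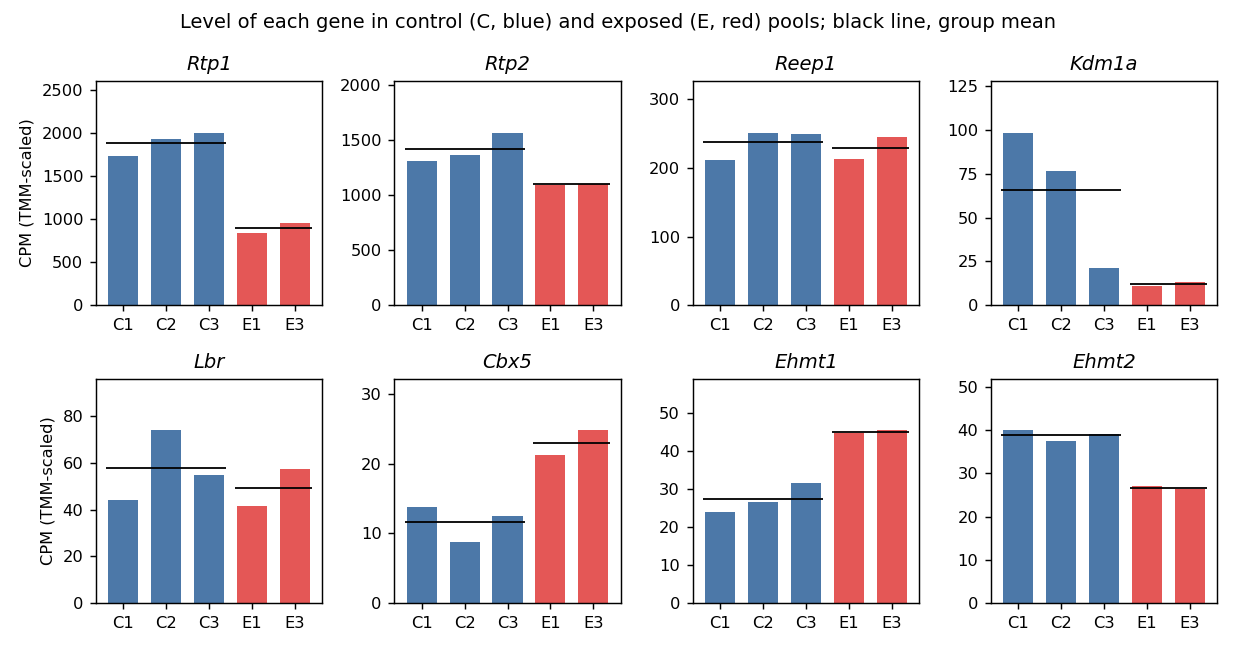
Level of each member, in TMM-scaled CPM, in control pools 1 to 3 (C, blue) and exposed pools 1 and 3 (E, red), with black lines for the group means. The exposed pools lie below all controls for Rtp1, Rtp2, Kdm1a and Ehmt2, above them for Cbx5 and Ehmt1, and among them for Reep1 and Lbr.

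*Rtp1* was at 1737 CPM in control pool 1, 1928 in control pool 2 and 2003 in control pool 3, and at 842 CPM in exposed pool 1 and 955 in exposed pool 3. Both exposed pools were thus far below every control pool. The mean fell from 1889.5 ± 137 CPM (SD, n = 3) to 898 ± 80.0 CPM (SD, n = 2), that is to 47.5% of the control level. The log2 fold change was -1.07 with an SE of 0.13 and a 95% interval of -1.38 to -0.77 (adjusted p = 0.0099, edgeR). By its p-value *Rtp1* ranked 14 among the 186 genes called lower. The call was lost without exposed pool 1, where the log2 fold change was -0.996 (adjusted p = 0.124), and when libraries were scaled to the ERCC spike-ins, where it was -1.28 (adjusted p = 0.9996). In pools of cells, fewer cells of a type and less RNA per cell cannot be told apart. The mature OSN marker *Omp* was at 80.3% of its control level and was not called (adjusted p = 0.164, edgeR). Of the 8 mature OSN markers, 7 had negative log2 fold changes, while *Stoml3*, the most abundant of them by TPM, was at 0.09. Whether cell composition had a part in the difference of *Rtp1* was not tested.

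*Rtp2*, the paralog, differed by less than *Rtp1*. Its levels were 1314, 1364 and 1566 CPM in control pools 1, 2 and 3 and 1093 and 1104 CPM in exposed pools 1 and 3. Both exposed pools were below all controls, and they lay closer to each other than the controls did. The log2 fold change was -0.36 with an SE of 0.13 and a 95% interval of -0.66 to -0.07, which did not pass the test (adjusted p = 0.189). The interval allows a level between 63.1% and 95.5% of control, whereas that of *Rtp1* runs from 38.5% to 58.7%. *Reep1*, in contrast, stood at 212, 251 and 249 CPM in the control pools and at 213 and 245 CPM in the exposed pools. Its conditions overlapped, with a log2 fold change of -0.05, an SE of 0.16 and a 95% interval of -0.42 to 0.32 (adjusted p = 0.891). The sign of this small value turned without control pool 3 (0.0089) and without exposed pool 1 (0.031).

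Since ratios within a library do not depend on its scaling, *Rtp1* was also set against its paralog and against the receptor whose cells were sorted. For these ratios, TPM, in which counts are also divided by exon length, was used. The TPM ratio of *Rtp1* to *Rtp2* was 1.13, 1.21 and 1.10 in control pools and 0.660 and 0.741 in exposed pools, so that *Rtp1* was the more abundant of the pair in every control and the less abundant in both exposed pools. The ratio was 1.64-fold lower after exposure, with a log2 difference of -0.71 (two-sided exact permutation test, p = 0.1, the smallest p that 3 against 2 pools can give). *Olfr151* itself was at 72.3% of its control level in exposed pools, with a log2 fold change of -0.47 that missed the threshold (adjusted p = 0.101), and the *GFP* reporter was at 85.0% (log2 fold change -0.23, adjusted p = 0.535). *Rtp1* per *Olfr151* was 1.44, 1.69 and 1.49 in control pools and 0.927 and 1.09 in exposed pools. It did not overlap between conditions and was 1.52-fold lower after exposure (log2 difference -0.61, exact permutation p = 0.1). Set against the *GFP* reporter the log2 difference of *Rtp1* was -0.84, and against *Omp* it was -0.76, again without overlap (exact permutation p = 0.1 for each).

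**Figure D2:**
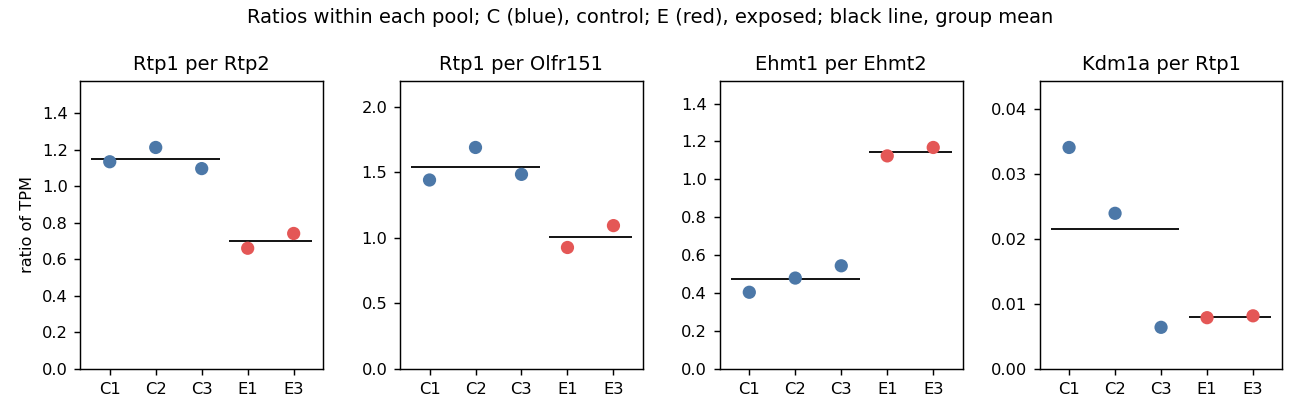
Ratio of TPM of 2 genes within each control pool (C, blue) and exposed pool (E, red), with black lines for the group means. Rtp1 per Rtp2 and Rtp1 per Olfr151 were lower and Ehmt1 per Ehmt2 higher in both exposed pools than in all controls, whereas for Kdm1a per Rtp1 control pool 3, at 0.0064, lay below the exposed pools.

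*Rtp1* belonged to the abundant transcripts of these cells. Of the 100 genes at 1000 CPM or more in control pools, 19 were called lower and 6 higher. The tested protein-coding genes most like *Rtp1* over the 5 libraries, by the root mean square distance of centred log2 CPM, were *Mslnl*, a mesothelin-like gene, at a distance of 0.040 and *Gprc5c*, an orphan receptor of the G protein-coupled class, at 0.064. *Mslnl* was at 1588, 1917 and 1944 CPM in control pools and 801 and 912 CPM in exposed pools, and was called lower with a log2 fold change of -1.08 (adjusted p = 0.014, edgeR). *Gprc5c*, with 468, 528 and 527 CPM in control pools and 207 and 267 CPM in exposed pools, was called lower as well (log2 fold change -1.10, adjusted p = 0.022, edgeR). Both genes were picked for their likeness to *Rtp1* over the same 5 libraries, so that their like differences follow from the choice. Among the 7 relatives of the transport genes, only *Reep3*, *Reep5* and *Reep6* reached the count minimum, and none was called. *Reep6* had a log2 fold change of -0.95 and *Reep3* of 0.64 (adjusted p = 0.307 for each, edgeR). *Rtp3* was at 0 in all libraries, and *Rtp4* varied between 1.66 and 23.5 CPM and was not tested.

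*Kdm1a* had the largest fitted difference of the members and also the largest spread. It stood at 98.4 CPM in control pool 1, 76.7 in control pool 2 and 21.3 in control pool 3, and at 11.0 and 13.0 CPM in exposed pools 1 and 3. Control pools 1 and 2 were high, whereas control pool 3 was much nearer to the exposed pools, which were lowest. The log2 fold change was -2.45 with an SE of 0.66 and a 95% interval of -4.05 to -0.84, and the gene was not called (adjusted p = 0.129, edgeR). Without control pool 3 it was -2.84 and called (adjusted p = 0.0093), and DESeq2 called it with all 5 libraries (log2 fold change -2.43, adjusted p = 0.00094). These were the only 2 of 15 alternatives that called it. Relative to *Rtp1*, *Kdm1a* was at a TPM ratio of 0.0341, 0.0240 and 0.0064 in control pools and 0.0079 and 0.0082 in exposed pools. These ratios overlapped, with control pool 3 the lowest of all (log2 difference -1.11, exact permutation p = 0.4).

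A like layout, with control pools 1 and 2 high, control pool 3 low and the exposed pools at or below it, was found in other listed genes, picked here after their values were seen. *Lhx2*, a homeodomain factor that binds OR enhancers, was at 376, 437 and 117 CPM in control pools and at 46.7 and 86.2 CPM in exposed pools (log2 fold change -2.22, adjusted p = 0.133, edgeR). *Ldb1*, the adaptor that links Lhx2-bound enhancers, was at 101, 91.0 and 32.5 CPM in control pools and 15.8 and 19.1 CPM in exposed pools. It was called lower (log2 fold change -2.10, adjusted p = 0.099, edgeR), with an adjusted p between 0.00066 and 0.469 over 15 alternatives, of which 5 called it. Without any one of the libraries other than control pool 3 the call on *Ldb1* was lost, with adjusted p-values from 0.178 to 0.469. *Eif2ak3* (PERK), the kinase of the unfolded protein response that acts in OR feedback, and *Cdyl*, a reader of methylated H3K9, had the same layout with log2 fold changes of -1.99 and -2.25 (adjusted p = 0.166 and 0.210, edgeR). Of all tested genes, 524 (5.21%) were at least 2-fold higher in both control pools 1 and 2 than in control pool 3, 129 (1.28%) were at least 2-fold lower, and 126 of the 524 also had both exposed pools below control pool 3. The protein-coding genes nearest to *Kdm1a* in pattern were *Mxi1*, a Max-binding repressor (distance 0.155, log2 fold change -2.13, adjusted p = 0.152), and *Mark3*, a microtubule affinity regulating kinase (distance 0.164, log2 fold change -2.48, adjusted p = 0.112). Their like differences follow from being picked for this pattern.

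**Figure D3:**
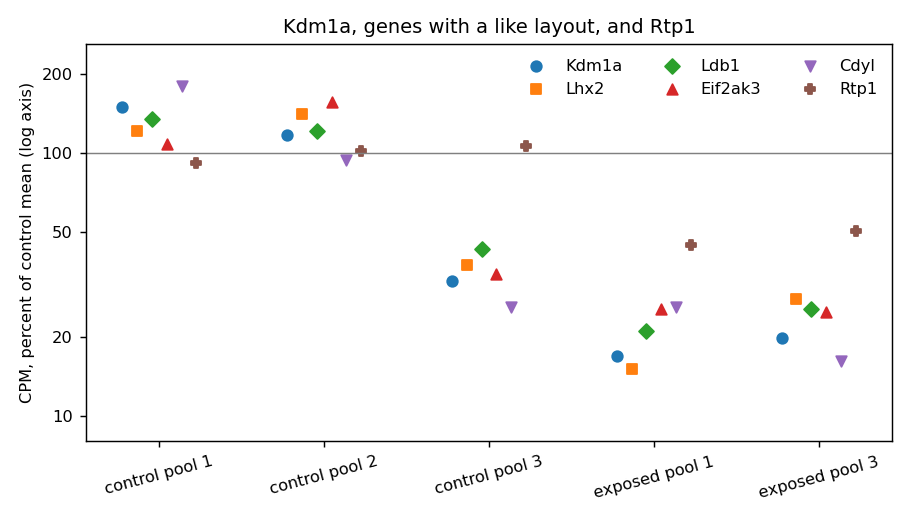
CPM of Kdm1a, of listed genes with a like layout and of Rtp1 in each library, as a percentage of the gene's control mean, on a log axis. In control pool 3 the first 5 genes stood at 26.0% to 43.3% of their control mean and Rtp1 at 106%, while Rtp1 was at 44.5% and 50.5% in the exposed pools.

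Blood transcripts varied between control pools in the same order as *Kdm1a*, and they were not alone in this. In control pools 1, 2 and 3 the myeloid markers summed to 132, 13.1 and 7.48 CPM. Those of sustentacular cells and glands summed to 180, 135 and 80.2 CPM, and those of immature OSNs to 450, 406 and 393 CPM. The 6 blood markers summed to 348, 108 and 13.0 CPM in control pools 1, 2 and 3 and to 15.5 and 6.70 CPM in exposed pools, with only *Hbb-bs*, a beta globin, above the count minimum. The part of any of these markers in the *Kdm1a* values was not tested. *Rtp1* did not share this order, being lowest among controls in control pool 1. The 10 myeloid markers summed to 7.48 to 132 CPM in control pools and to 70.1 and 174 CPM in exposed pools. All 5 tested myeloid markers had positive log2 fold changes, with a median of 2.08. Both exposed pools lay above all controls for 4 of them, which held for 20.3% of all tested genes. *Fcer1g* was called higher, but not without control pool 2 (adjusted p = 0.212, edgeR) or either exposed pool. Without control pool 1, where 320 genes in all were called higher, edgeR called 3 myeloid markers. DESeq2 called 2, beside 7.22% of all genes. The 7 sustentacular and gland markers summed to 80.2 to 180 CPM in control pools and to 85.9 and 231 CPM in exposed pools, with *Muc5ac* at 0. The 6 markers of immature OSNs summed to 393 to 450 CPM in control pools and 430 and 492 CPM in exposed pools. Of these, 4 had positive and 2 negative log2 fold changes. *Gap43*, a growth cone protein, was called higher (log2 fold change 0.94, adjusted p = 0.089, edgeR). This call was lost without any one of the 5 libraries (adjusted p from 0.107 to 0.204 without a control pool). *Tubb3*, the most abundant of them by TPM, was at -0.60 (adjusted p = 0.198, edgeR).

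Among the partners of Kdm1a and its relative *Kdm1b*, 7 of 9 listed genes were tested and none was called, with a median log2 fold change of -0.31. The most abundant by TPM were *Hdac2*, a histone deacetylase of the CoREST complex, at -0.31 (adjusted p = 0.456) and *Rcor1*, which codes for CoREST itself, at -0.83 (adjusted p = 0.497, edgeR). *Rcor1* was at 65.0 CPM in control pool 1 and between 17.0 and 22.2 CPM in the other libraries.

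The H3K9 methyltransferase pair stood on opposite sides of the control levels. *Ehmt1* was at 23.9, 26.5 and 31.5 CPM in control pools and at 44.9 and 45.5 CPM in exposed pools, where both values were above all controls. Its log2 fold change of 0.73, with an SE of 0.26 and a 95% interval of 0.12 to 1.33, did not pass the test (adjusted p = 0.194, edgeR). *Ehmt2* was at 39.9, 37.4 and 39.2 CPM in control pools and at 27.0 and 26.3 CPM in exposed pools, where both were below all controls. Its log2 fold change was -0.54, with an SE of 0.24 and a 95% interval of -1.12 to 0.04 (adjusted p = 0.289, edgeR). Neither gene was called, although the spread within each condition was small, and DESeq2 called *Ehmt1* (adjusted p = 0.054) but not *Ehmt2*. The TPM ratio of *Ehmt1* to *Ehmt2* was 0.404, 0.479 and 0.544 in control pools and 1.12 and 1.17 in exposed pools. It was 2.43-fold higher after exposure (log2 difference 1.28, exact permutation p = 0.1, the smallest possible), passing from an excess of *Ehmt2* in every control pool to a slight excess of *Ehmt1* in both exposed pools. With *Ehmt1* above and *Ehmt2* below all controls in both exposed pools, the ratio had to separate, so this p-value adds no further test. Without any one of the libraries the log2 difference stayed between 1.17 and 1.38.

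*Cbx5*, the least abundant member in control pools, was at 13.8, 8.76 and 12.5 CPM in control pools and at 21.3 and 24.8 CPM in exposed pools. Both exposed pools were above all controls, and the exposed mean of 23.0 ± 2.49 CPM (SD, n = 2) was 197% of the control mean of 11.7 ± 2.63 CPM (SD, n = 3). Its log2 fold change of 0.98, with an SE of 0.35 and a 95% interval of 0.14 to 1.81, did not pass edgeR's test (adjusted p = 0.203) and passed that of DESeq2 (adjusted p = 0.085). *Lbr* was at 44.0, 73.9 and 55.0 CPM in control pools and at 41.6 and 57.2 CPM in exposed pools. Its conditions overlapped, control pool 2 being the highest, and the log2 fold change was -0.22 with an SE of 0.30 and a 95% interval of -0.93 to 0.49 (adjusted p = 0.729, edgeR). Without control pool 2 it was 0.0039.

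**Figure D4:**
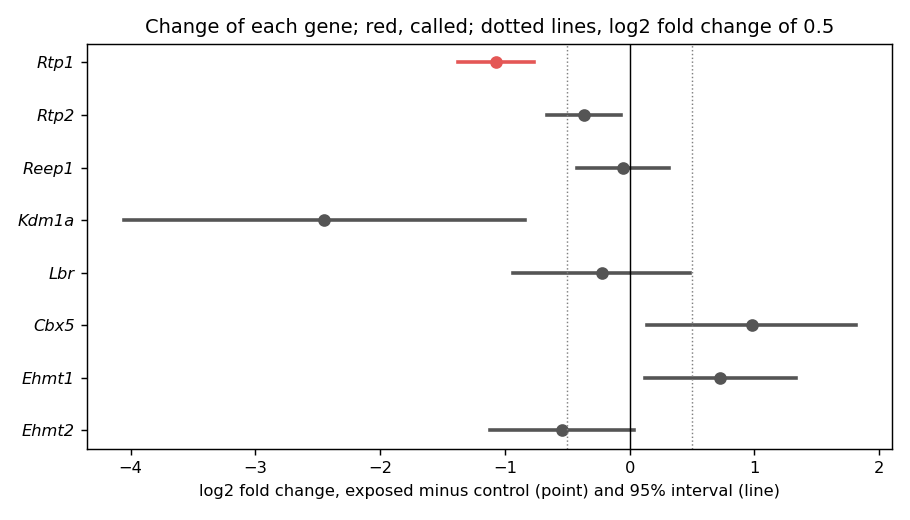
Log2 fold change (exposed minus control) of each member as a point, with its 95% interval as a line. Rtp1, in red, was the only member called, and dotted lines mark a log2 fold change of 0.5 in either direction, the minimum size of a call.

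The other genes of the H3K9 and envelope systems gave few calls. All 12 listed writers, readers and partners of H3K9 methylation were tested and none was called, with a median log2 fold change of 0.14. DESeq2 called 2 of them, *Setdb1*, an H3K9 methyltransferase, higher (adjusted p = 0.026) and *Cdyl* lower (adjusted p = 0.042). It called 7.22% of all genes higher and 7.65% lower. Without control pool 3, where 429 genes in all were called lower, edgeR called *Cdyl* lower (adjusted p = 0.045). The most abundant of them by TPM, *Trim28*, the KAP1 corepressor, and *Cbx1* (HP1 beta), had log2 fold changes of -0.43 and 0.27 (adjusted p = 0.651 and 0.636, edgeR). None of the 6 tested H3K9 demethylases was called (7 listed, median 0.08), and the most abundant of them by TPM, *Kdm4b* and *Kdm3a*, were at 0.12 and -0.03 (adjusted p = 0.827 and 0.957, edgeR). Of 14 genes of the nuclear lamina and inner envelope, 12 were tested, with a median of -0.18. By edgeR 1 was called higher and none lower, beside 3.42% and 1.85% of all tested genes. The inner membrane protein gene *Lemd2* was called lower by DESeq2 (adjusted p = 0.047) and by edgeR without control pool 3 (adjusted p = 0.056), and *Tmpo*, which codes for lamina-associated LAP2 proteins, by edgeR without exposed pool 3 (adjusted p = 0.066). The gene called was *Lmna*, which codes for lamins A and C, at 42.5, 30.3 and 60.1 CPM in control pools and 120 and 96.6 CPM in exposed pools (log2 fold change 1.29, adjusted p = 0.090, edgeR). Its groups did not overlap, yet only 5 of 15 alternatives called it, and without any one of the libraries other than control pool 3 the adjusted p lay between 0.162 and 0.454. The most abundant genes of this list by TPM, *Sun1* and *Banf1*, were at -0.08 and -0.35 (adjusted p = 0.862 and 0.569, edgeR).

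The list of receptor choice and feedback genes was chosen with earlier results of these data known, so its shares are only a description. All 9 listed genes were tested. They all had negative log2 fold changes, under each scaling as well, with a median of -0.59, against -0.03 over all tested genes. Both exposed pools were below all controls for 6 of them, which held for 19.6% of all tested genes. Only *Ldb1* was called by edgeR, which called 1.85% of all tested genes lower. DESeq2 called 4 of them lower (*Ldb1*, *Lhx2*, *Eif2ak3* and *Emx2*), beside 7.65% of all genes. Without control pool 3 edgeR called 3 (*Ldb1*, *Lhx2* and *Eif2ak3*), where 429 genes in all were called lower. The signs were not uniform when libraries were left out, since 7 of 9 were negative without control pool 3 and 8 of 9 without exposed pool 3. *Adcy3*, the adenylyl cyclase of olfactory transduction, whose loss disturbs receptor choice, was at 5386, 7431 and 5999 CPM in control pools and at 2144 and 6206 CPM in exposed pools. The low value was that of exposed pool 1 alone, and the log2 fold change of -0.59 did not pass the test (adjusted p = 0.504, edgeR). *Atf5*, the factor translated in the feedback response, was at -0.18 (adjusted p = 0.732, edgeR).

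Across members, levels per length differed widely. In control pools *Rtp1* was at 2088 ± 255 TPM and *Rtp2* at 1821 ± 226 TPM (SD, n = 3), ranks 46 and 53 among tested genes, followed by *Reep1* at 199 ± 29.4 TPM. *Kdm1a* and *Lbr* came next at 43.1 ± 25.2 and 42.1 ± 13.4 TPM, and then *Ehmt2* at 24.3 ± 0.775 TPM, *Ehmt1* at 11.6 ± 2.01 TPM and *Cbx5* at 4.43 ± 0.781 TPM. Over the 5 libraries the TPM ranges of *Rtp1* and *Rtp2* overlapped, although *Rtp1* was the higher within each control pool. Those of *Kdm1a* and *Lbr* overlapped within the control pools as well, so that these neighbours did not differ beyond their spread. In exposed pools the order within both Rtp and Ehmt pairs was the reverse, with *Rtp2* at 1259 ± 62.3 TPM above *Rtp1* at 884 ± 116 TPM (SD, n = 2) and *Ehmt1* at 17.1 ± 0.876 TPM above *Ehmt2* at 14.9 ± 0.356 TPM. *Kdm1a* was at 7.11 ± 1.11 TPM, below *Lbr* at 31.9 ± 8.45 TPM and near *Cbx5* at 7.86 ± 1.18 TPM. *Reep1*, at 171 ± 23.6 TPM, kept its place between the Rtp genes and the nuclear factors in every library.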

How the data were processed

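Polyadenylated RNA of sorted GFP-positive cells was sequenced as 50-base reads. The authors mapped the reads on GRCm38 with STAR 2.7.0a and made the deposited whole-number counts per gene with featureCounts 1.6.3 (Ensembl 99 annotation with revised OR gene models, 92 ERCC spike-ins and the reporter). Reads that map to several places or to exons of several genes were not counted, and strand was not used. The counts are neither filtered nor normalized, and amplification before sequencing means that counts are not independent molecules.

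Groups were taken from the labels. Counts were tested in R 4.3.3 with edgeR 4.0.16 (TMM, robust glmQLFit, glmQLFTest), in 1 fit of the 5 libraries by condition, over genes with 140 or more counts in all pools of a condition, where 140 lies at the dip of the density of log2 counts below its highest mode. Calls needed an adjusted p (Benjamini-Hochberg) under 0.1 and a log2 fold change beyond 0.5 in either direction. The study used DESeq2 1.30.1, and DESeq2 1.42.0 was an alternative here, beside other scalings, filters, thresholds, a block for pool number and the removal of each library. TPM was computed from counts and exon lengths. Ratios of TPM were compared on the log2 scale with an exact permutation test on the size of the difference. Similar genes were sought on log2 (CPM + 0.1), centred per gene, over 9604 protein-coding genes. The procedure was tested on simulated data. Named genes are the 8 members, called genes and the 2 most abundant tested genes of each list, *Olfr151*, the reporter and *Omp*, the 2 genes nearest to *Rtp1* and to *Kdm1a*, and genes with overlapping exons. Others are said to be chosen after their values were seen, or illustrate a list. The members and lists were chosen with earlier results of these data known. Pools of different mice are the replicates. Python 3.11.15 with pandas 2.3.3, numpy 2.4.6 and scipy 1.17.1 was used for the summaries.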

Additional observations from a re-analysis of the deposited data

How the results depend on the processing

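With 3 control and 2 exposed pools, the number of calls depended on the method. Against 344 genes called higher and 186 lower by edgeR, DESeq2 called 725 and 769, so that calls in the lower direction went from the smaller to the larger part. ERCC spike-in scaling gave 94 and 49, the filterByExpr filter 162 and 74, an adjusted p under 0.05 190 and 90, and a test against the fold threshold (glmTreat) 147 and 55. ERCC scaling moved the median log2 fold change of all tested genes to -0.23 and testing without a filter moved it to -0.15, from -0.03. Leaving out each library gave 93 to 348 genes called higher and 19 to 429 lower. With the pool number as a replicate block, edgeR called 11 genes higher and 0 lower, and no member, with *Rtp1* at -1.06 (adjusted p = 0.127). Pools with the same number did not deviate together (correlation of deviations 0.028 for number 1 and -0.072 for number 3, over 10055 genes), and the labels do not tie the numbers to days. The number of members called was 4 by DESeq2, 0 with ERCC scaling and 0 to 2 without each library. *Rtp1* was called in 12 of 15 alternatives, not with ERCC scaling (-1.28), the block or without exposed pool 1, and ranged from -1.19 to -0.996 without each library. DESeq2 called *Kdm1a* (-2.43), *Cbx5* (0.99) and *Ehmt1* (0.74). Without each library, *Kdm1a* ranged from -2.84 to -2.02, *Rtp2* from -0.41 to -0.26, *Ehmt2* from -0.57 to -0.51, *Ehmt1* from 0.65 to 0.87 and *Cbx5* from 0.81 to 1.12. *Reep1* ranged from -0.18 to 0.031 and was above 0 without control pool 3 (0.0089) and without exposed pool 1 (0.031), and *Lbr* ranged from -0.50 to 0.0039, the last without control pool 2. The log2 difference of *Rtp1* per *Olfr151* ranged from -0.73 to -0.49 and was -0.84 against the reporter, that of *Rtp1* per *Rtp2* from -0.80 to -0.63, of *Ehmt1* per *Ehmt2* from 1.17 to 1.38 and of *Kdm1a* per *Rtp1* from -1.83 to -0.63. The cause of these changes was not tested. Where an exposed pool was left out, the other is assumed to vary like the controls. Permutation tests of 3 against 2 pools cannot go below 0.1, and the intervals of all 5 nuclear factors include log2 differences above 0.5 in size.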
